A study of Mus musculus with 2 samples.

Results

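The galectin family was examined on 2 one-colour (Cy3) Agilent mouse arrays of CMT93 cells, an established carcinoma line from the rectum of a C57BL/ICRF mouse of 19 months. One array held cells given 3 µg/mL lipopolysaccharide (LPS), a glycolipid of the Gram-negative bacterial envelope, over 24 h, and the other held control cells, both grown in DMEM. Members were all non-control probes whose gene name in the files was that of 1 of 10 genes, namely Lgals1, Lgals2, Lgals3, Lgals4, Lgals6, Lgals7, Lgals8, Lgals9, Lgals12 and Lgals3bp. All 10 were found, as 13 of 55677 probes, 3 for Lgals4, 2 for Lgals3bp and 1 for each of the other genes. Probes were chosen by name, but the family itself was selected on the low Lgals4 signal of the LPS array, so the values below are a description. With 1 array per group no test between the groups was possible, no difference has a replicate check, and precision is limited by that number of arrays.

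Galectins are small lectins that bind β-galactosides of glycoproteins and glycolipids through a conserved carbohydrate recognition domain. Prototype members such as galectins 1, 2 and 7 have a single domain, galectin 3 joins its domain to a repetitive N-terminal tail, and the tandem-repeat members 4, 6, 8, 9 and 12 carry a pair of domains in a single chain. They are made in the cytosol and leave the cell by a route that bypasses the secretory pathway. In the gut, galectin 4 is known as an epithelial lectin that takes part in sorting glycoproteins to the apical surface. Lgals3bp encodes no galectin but a secreted glycoprotein that galectin 3 binds.

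A gene was taken as measured where the scanner software flagged its brightest probe as well above background on each of the 2 arrays. Of the 10 genes, 8 were measured, and none of the 13 probes was saturated or carried an outlier flag. The galectin genes did not share a direction. Lgals4 and Lgals6 were lower on the LPS array by 2-fold or more, Lgals2 lay just short of that size, Lgals9 and Lgals1 were lower by less, Lgals3 was higher, and Lgals8 and Lgals3bp differed by less than the spread between repeated spots of a probe. Thus 2 of the 8 measured genes were at least 2-fold lower, against 0.569% of 20380 measured genes, and none was at least 2-fold higher, against 1.46%. The first count carries no support, since the family was picked with it in view, and its 2 genes have related probes. The median log2 difference (LPS minus control) of the 8 genes was -0.36, beside -0.02 over all measured genes. The error after each ± is the SD of the log2 difference over repeated spots, taken as the median of the 31 repeated probes nearest in brightness. It covers the slide and not the cultures. Of the 8 genes, 6 differed by more than 2 such SDs, as did 46.3% of all measured genes.

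**Figure D1:**
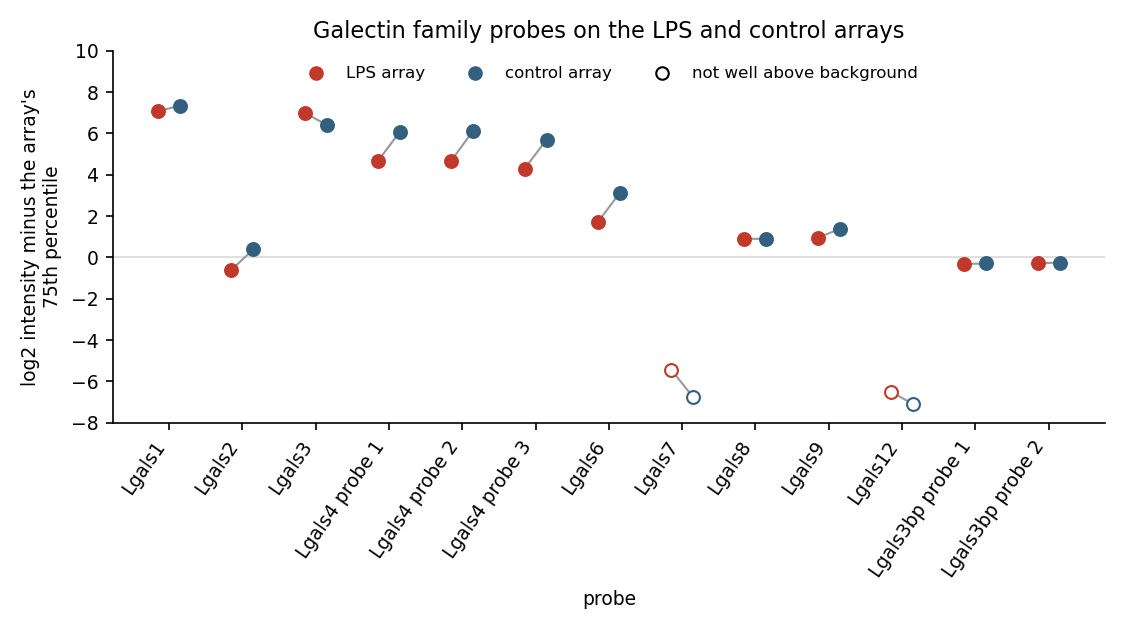
Level of each of the 13 galectin family probes, as log2 intensity minus the 75th percentile of its array, on the LPS array (red, left of each pair) and the control array (blue), with open circles for spots not well above background. All 3 Lgals4 probes and the Lgals6 probe were lower on the LPS array, and the Lgals7 and Lgals12 probes have open circles for both arrays; heights of different probes are not comparable, since each probe has its own response.

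Lgals4 encodes galectin 4, and Lgals6 encodes its closest relative, the product of a gene duplication. As background, Lgals6 is present in some laboratory mouse strains and missing from others, C57BL/6 among those that lack it. The probe sequences are shown because the reading of the Lgals6 value turns on them. The Lgals6 probe has no position on mm9, the C57BL/6J build named in the file headers. The overlapping pair of probes is given 5′ to 3′, with capitals at the bases that differ within the stretch they share.
Lgals4 probe A_55_P2063257: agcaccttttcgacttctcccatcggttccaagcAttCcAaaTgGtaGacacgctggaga
Lgals6 probe A_52_P154741: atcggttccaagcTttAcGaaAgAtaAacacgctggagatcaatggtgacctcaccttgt
Bases 22 to 60 of the Lgals4 probe align without gaps to bases 1 to 39 of the Lgals6 probe, and 33 of these 39 bases (84.6%) match. Counted from the 5′ end of the Lgals4 probe, the differences are A35T, C38A, A40G, T43A, G45A and G48A, with the Lgals4 base first. The 6 differences fall within a short central stretch, and the longest run the probes share is 13 bases. The other 21 bases of the Lgals6 probe were not set against Lgals4, whose full transcript was not used here.

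The other Lgals4 probes lie further 3′ and hold no such stretch of the Lgals6 probe, with a longest shared run of 7 bases. On mm9 the 3 Lgals4 probes lie on the plus strand of chromosome 7, at 29626555 to 29626614 (the overlapping probe), at 29626658 to 29626717 (A_51_P497100) and at 29626661 to 29626720 (A_55_P2063256). The last 2 share 57 of their 60 bases, so the 3 probes sample 2 places of the transcript and not 3. These last 2 probes hold AATAAA, the hexamer of the polyadenylation signal, and the overlapping probe does not. Exon and UTR annotation of the probes was not used here.

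The intensity of the overlapping Lgals4 probe was 12341 on the LPS array and 33839 on the control array. A_51_P497100 and A_55_P2063256 read 16061 and 16197 on the LPS array, and 44030 and 45786 on the control array. The log2 differences were -1.41, -1.41 and -1.45 in that order, with a mean of -1.42 and an SD over the 3 probes of 0.03. The arrays thus stood apart by a similar amount at both places on the transcript. The brightest probe, which stands for the gene, gave -1.45 ± 0.03, or 2.74-fold lower on the LPS array. Among the 10190 genes at or above the median brightness this was the lowest value, and 0.226% of all measured genes, all of them dimmer than the median, lay below it. The family was selected on this low signal, so the rank is a description and no support.

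The Lgals6 probe read 2075 on the LPS array and 5668 on the control array, a log2 difference of -1.41 ± 0.04, or 2.65-fold lower. Its difference was within 0.01 of that of the overlapping Lgals4 probe and 0.05 above that of the brightest Lgals4 probe. The first gap is below the spread between repeated spots and the second close to it. Whether the Lgals6 probe captured Lgals4 transcript was not tested, so the 2 genes may not be separate measurements. The gene counts and the median over the 8 measured genes nevertheless hold both. Lgals4 alone would leave 1 gene at least 2-fold lower.

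**Figure D2:**
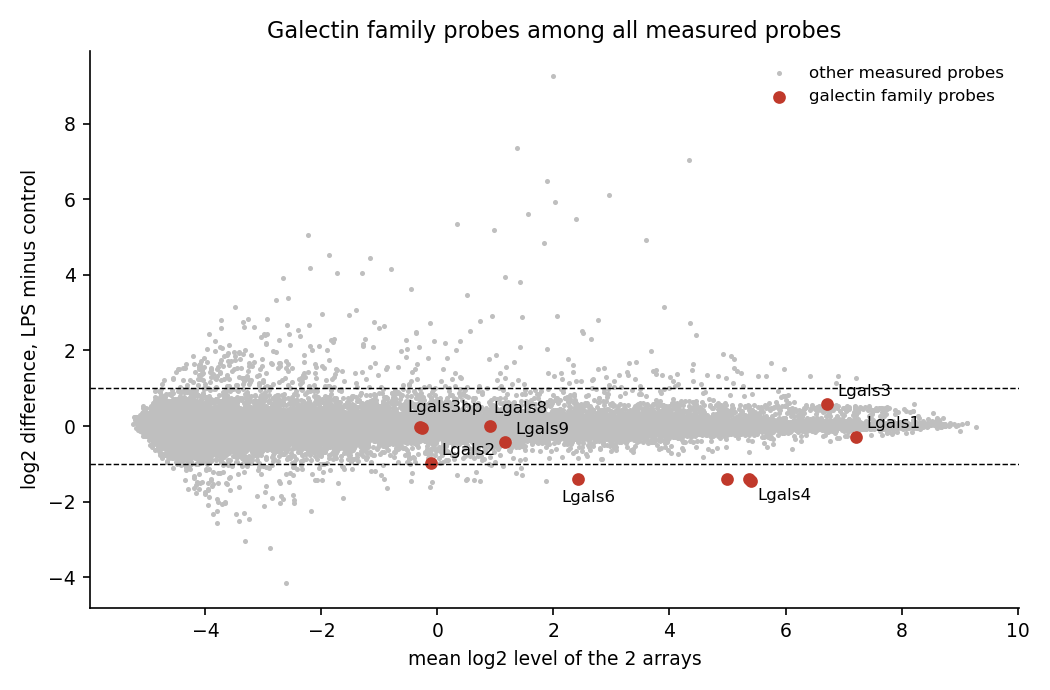
Log2 difference (LPS minus control) against the mean log2 level of the 2 arrays for each probe well above background on both arrays, with galectin family probes in red, other probes in grey and dashed lines at 2-fold. The Lgals4 and Lgals6 probes lie below the lower line, at -1.45 to -1.41, and Lgals2 lies at the line.

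The prototype galectins differed from each other. Lgals2 encodes galectin 2, a lectin of the gastrointestinal epithelium. Its probe, on the minus strand of chromosome 15 at 78681315 to 78681374, read 417 on the LPS array and 851 on the control array. The log2 difference was -0.98 ± 0.06, or 1.98-fold lower, just outside the 2-fold size. The member just inside it was Lgals6, at 2.65-fold. Lgals1 encodes galectin 1, a widely expressed lectin known to restrain T cells. Its probe, on the plus strand of chromosome 15 at 78760566 to 78760625, read 84649 on the LPS array and 106290 on the control array, a log2 difference of -0.28 ± 0.03. Lgals7 encodes galectin 7, known from stratified epithelia. Its intensities of 14.7 on the LPS array and 6.02 on the control array were not well above background, and no fold is given.

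Lgals3 was the only measured member above 0 by more than the spot error. It encodes galectin 3, the chimera-type lectin also known as the macrophage antigen Mac-2 and abundant in colonic epithelium. Its probe, on the plus strand of chromosome 14 at 48005414 to 48005473, read 80932 on the LPS array and 55687 on the control array. The log2 difference was 0.58 ± 0.03, and 96.4% of measured genes had a lower one. Lgals3bp read 517 and 507 on its 2 probes on the LPS array and 550 and 533 on the control array, with log2 differences of -0.04 ± 0.06 and -0.03 ± 0.06. Those probes lie on the minus strand of chromosome 11, at 118254332 to 118254391 and at 118254070 to 118254129, and they gave the same picture of little difference.

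Among the remaining tandem-repeat galectins, only Lgals9 differed by more than the spot error. Lgals9 encodes galectin 9, a ligand of Tim-3, a receptor on T cells. Its probe, on the minus strand of chromosome 11 at 78776922 to 78776981, read 1220 on the LPS array and 1698 on the control array, a log2 difference of -0.43 ± 0.05. Lgals8 encodes galectin 8, known in human cells for marking damaged vesicles that hold bacteria. Its probe, on the minus strand of chromosome 13 at 12531700 to 12531759, read 1181 on the LPS array and 1214 on the control array. Its log2 difference was 0.01 ± 0.05, and its sign turned with the scaling. Lgals12 encodes galectin 12, a lectin of fat tissue. Its intensities of 7.004 on the LPS array and 4.763 on the control array were not well above background.

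Apart from A_51_P497100 and A_55_P2063256 of Lgals4, no galectin probe shared a run of over 16 bases with any other probe. Over both strands of the array's probes, the longest run that a galectin probe shared with a probe of a gene outside the family was 12 to 16 bases. This search covers the array's own probes and not all mouse transcripts. It also misses close matches with scattered differences. The Lgals6 probe and Lgals4 probe A_55_P2063257 match at 33 of 39 bases, yet their longest shared run is 13 bases. A short run is therefore no sign that a probe is specific.

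Genes near the galectin loci were read next. The window of 100 kb and the neighbours named here were chosen after the values were seen. In each of the 7 windows around a measured member with a position on mm9, with 2 to 11 measured genes, none was 2-fold different; at shares of 1.46% higher and 0.569% lower over all measured genes, few would be, so nothing is read from these counts. The log2 differences of the 9 measured genes within 100 kb of the Lgals4 probe ran from -0.59 for Rinl to 0.41 for Nfkbib, which encodes an inhibitor of NF-kB. Their median was 0.02. The Lgals7 probe lies 24.0 kb from the nearest Lgals4 probe and was not well above background. Lgals1 and Lgals2 lie 79.3 kb apart by their probes. Around Lgals2, 10 measured genes ran from -0.28, which is Lgals1 itself, to 0.32 for Pdxp, with a median of 0.08. Near Lgals9 the measured genes were Nos2 at 0.25 and Ksr1 at 0.68, both above 0 beside -0.43 for Lgals9. The medians of the windows of Lgals1, Lgals3, Lgals8 and Lgals3bp lay between -0.02 and 0.06. The probe of Cdc42ep1, centred 0.064 kb from that of Lgals2, stood at 0.01.

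The sequences upstream of Lgals4 and Lgals2 are shown because these 2 genes were the lowest of the family with a reference position. Promoters came from RefSeq on GRCm38.p6, which held 7 of the 10 genes, and the 250 bases before the start site were searched on both strands for 5 motifs, among them 2 spellings of the NF-kB site. In the sequences below, written 5′ to 3′ on the gene's strand, capitals mark the matches. The Lgals4 stretch is chr7:28833544-28833793 on the plus strand, and the Lgals2 stretch is chr15:78855530-78855779 on the minus strand.
Lgals4: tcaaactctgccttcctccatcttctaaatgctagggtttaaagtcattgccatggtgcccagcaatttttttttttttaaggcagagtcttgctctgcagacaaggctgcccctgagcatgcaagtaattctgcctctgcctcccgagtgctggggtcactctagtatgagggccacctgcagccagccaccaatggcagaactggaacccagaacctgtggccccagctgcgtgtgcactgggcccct
Lgals2: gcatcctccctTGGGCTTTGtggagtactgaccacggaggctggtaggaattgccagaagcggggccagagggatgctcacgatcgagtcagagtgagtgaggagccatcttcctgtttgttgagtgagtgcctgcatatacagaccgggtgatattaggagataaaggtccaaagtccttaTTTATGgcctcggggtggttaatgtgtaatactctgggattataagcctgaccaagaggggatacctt
The Lgals2 stretch held CAAAGNNCA, a core of the site of the nuclear receptor HNF4, on the opposite strand at bases -239 to -231 from the start site, and TTTATG, a core of the site of the intestinal CDX factors, at bases -68 to -63. Of 32851 promoters of the same length, 5.49% held the first and 10.8% the second. The Lgals4 stretch held neither of them, nor TATAAA, which 12.4% of promoters held. The NF-kB consensus was found in 7.25% of promoters and, among the 7 galectin genes, upstream of Lgals3 at bases -70 to -61 and of Lgals8 at bases -148 to -139 on the opposite strand. It was not found upstream of Lgals4 or Lgals2. Motifs were chosen after the values were seen, and the other spelling of the NF-kB site, which fixes other positions and was found in 4.11% of promoters, matched Lgals9 and no other galectin gene. A match describes the letters in this window and shows no binding.

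Partners of galectins were then set beside the family. Galectins read galactose-bearing chains, so lists were made of the enzymes that build and cap those chains. Other lists held relatives with a galectin fold, glycoproteins known to meet galectins, and proteins tied to damaged vesicles. Of 16 enzymes and sugar transporters for branched and polylactosamine chains found on the array, 14 were measured. None was 2-fold different, and the median log2 difference was -0.01. B4galt1, which adds galactose, was highest at 0.34 ± 0.03, followed by the chain-extending enzyme gene B3gnt3 at 0.16 ± 0.05. The galactosyltransferase genes B4galt5 and B4galt4 were lowest at -0.42 ± 0.03 and -0.24 ± 0.24, the latter on a dim probe. Mgat5, whose enzyme makes the branch that galectin 3 is known to favour, had intensities of 18.4 on the LPS array, not well above background, and 55.4 on the control array. It was above background on the control array alone and dim there, so no fold is given.

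Of 8 genes for sialyl- and fucosyltransferases, 6 were measured, with none 2-fold different and a median of -0.24. Fut1 was lowest at -0.47 ± 0.24 on a dim probe and Fut8, which adds core fucose and not a cap, stood at -0.35 ± 0.05. The only member above 0 was St6gal1, whose product adds the α2,6-linked sialic acid known to block several galectins, at 0.13 ± 0.05, and St3gal3 came next at -0.12 ± 0.04. Sulfatide is a glycolipid that galectin 4 binds. A list of 5 genes was read beside it, without a check that each serves its synthesis. Of these, 3 were measured, at -0.14 ± 0.13 for Gal3st2, 0.02 ± 0.05 for the sulfotransferase gene Gal3st1 and 0.09 ± 0.03 for the ceramide synthase gene Cers2. The galectin-fold relatives Lgalsl and Grifin, the lens protein gene, stood at 0.04 ± 0.04 and 0.35 ± 0.24. The Grifin probe was dim, at 23.8 on the LPS array and 19.2 on the control array.

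Glycoproteins that galectins bind or sort made up the next list. Of 19 on the array 17 were measured, 2 of them at least 2-fold higher and none 2-fold lower, with a median of 0.00. Over all measured genes these shares were 1.46% and 0.569%, and nothing particular to the list is read from so few genes. Cd47, which encodes a surface signal that restrains phagocytes, read 17850 on the LPS array and 7044 on the control array, a log2 difference of 1.39 ± 0.03. Muc1, a transmembrane mucin gene, read 1000 on the LPS array and 452 on the control array, a log2 difference of 1.19 ± 0.06. The lowest was the apical peptidase gene Anpep, which read 421 on the LPS array and 783 on the control array, a difference of -0.85 ± 0.06. Egfr, the epidermal growth factor receptor gene, came next at -0.19 ± 0.03. Dpp4 was not well above background on either array. Ptprc, for the leukocyte surface phosphatase CD45, read 14.7 on the LPS array, not well above background, and 52.9 on the control array. No fold is given for it.

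All 10 genes listed for damaged endosomes were measured and under 2-fold different, with a median of -0.05. Whether the product of each, Calcoco1 among them, meets a galectin was not checked. Tbk1 and Pdcd6ip were highest at 0.17 ± 0.05 and 0.15 ± 0.03, and Calcoco1 and Optn lowest at -0.44 ± 0.08 and -0.13 ± 0.05. Over the 6 lists, then, Cd47 and Muc1 were the measured genes past 2-fold. At shares of 1.46% higher and 0.569% lower over all measured genes, few would be in lists of these sizes. Nothing particular to a list is read from these counts, nor from the lists with none.

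**Figure D3:**
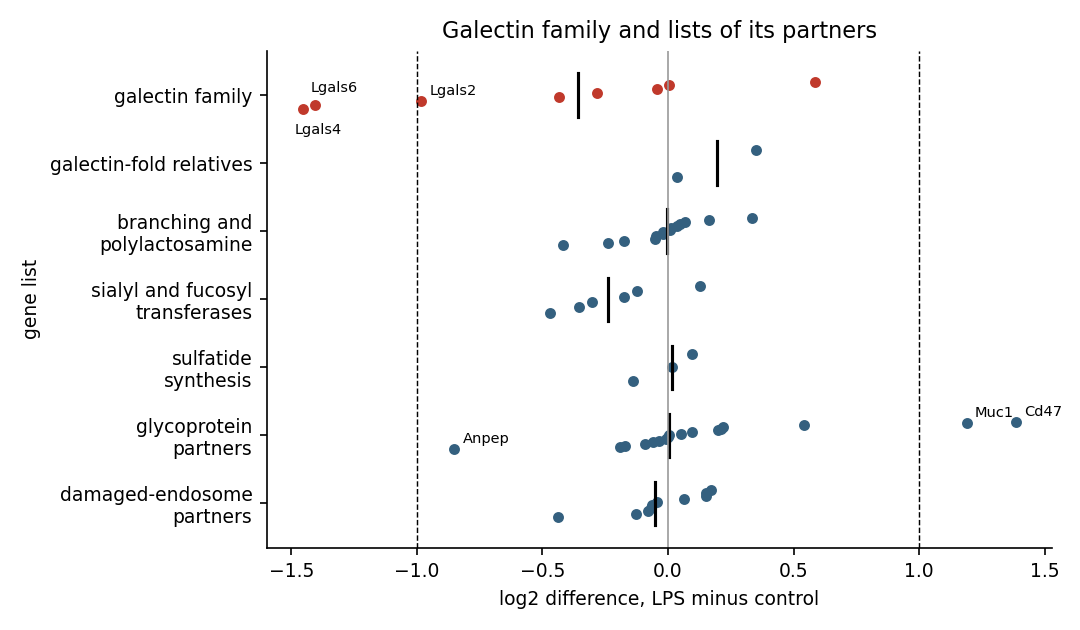
Log2 difference (LPS minus control) of each measured gene of the galectin family (red) and of 6 lists of related genes (blue), with a black bar at each median and dashed lines at 2-fold. The family spans -1.45 to 0.58, and past the dashed lines lie Lgals4, Lgals6, Cd47 and Muc1.

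The 5 genes with a name and at least median brightness whose log2 difference came closest to that of Lgals4 over the 2 arrays were Clps, Slc4a11, Scgb2b2, Sema7a and Lgals6, at -1.45, -1.44, -1.44, -1.43 and -1.41. With 2 arrays this likeness is in size alone.

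Lgals4 is an epithelial gene, so epithelial markers were read beside it. Of 10 such markers 9 were measured, all 9 with log2 differences below 0, as had 55.5% of all measured genes, and a median of -0.21. Their summed intensity was 634489 on the LPS array and 733334 on the control array, of which Krt18 alone gave 311100 and 353848. Krt20, Vil1 and Epcam were lowest, at -0.92 ± 0.12, -0.72 ± 0.06 and -0.56 ± 0.03, and Cdh1, for E-cadherin, stood at -0.01 ± 0.03. The intestinal factor gene Cdx2 was not well above background on either array. Their part in the Lgals4 difference was not tested, and fewer cells of a type and less RNA per cell cannot be told apart in such bulk RNA. Macrophages and fibroblasts also make galectins 1, 3 and 9. Both arrays held an established carcinoma line, so markers of other cell types describe signal in cultured cells and not shares of cells. Of 7 macrophage markers 2 were measured, Csf1r at 0.06 ± 0.05 and Fcer1g at -0.18 ± 0.14, with Lyz2, Tyrobp and Laptm5 below that level on each array, Adgre1 above it with LPS alone and Ptprc in control alone. Their summed intensity was 1708 on the LPS array and 1730 on the control array, of which Csf1r alone gave 1587 and 1575. Itgam, also known from macrophages but held in the glycoprotein list, was brighter than these. It read 7780 on the LPS array and 7516 on the control array, a log2 difference of 0.09 ± 0.03. Of 5 fibroblast markers 2 were measured, Col1a1 at 0.33 ± 0.12 and Col1a2 at 0.91 ± 0.14, with Dcn and Lum not well above background, Pdgfra above it in control alone, and a summed intensity of 254 on the LPS array and 209 on the control array. Of 3 endothelial markers, Pecam1 and Kdr were measured and had a median of 0.02. The summed intensities were 5448 on the LPS array and 5446 on the control array, of which Kdr alone gave 5362 and 5359.

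**Figure D4:**
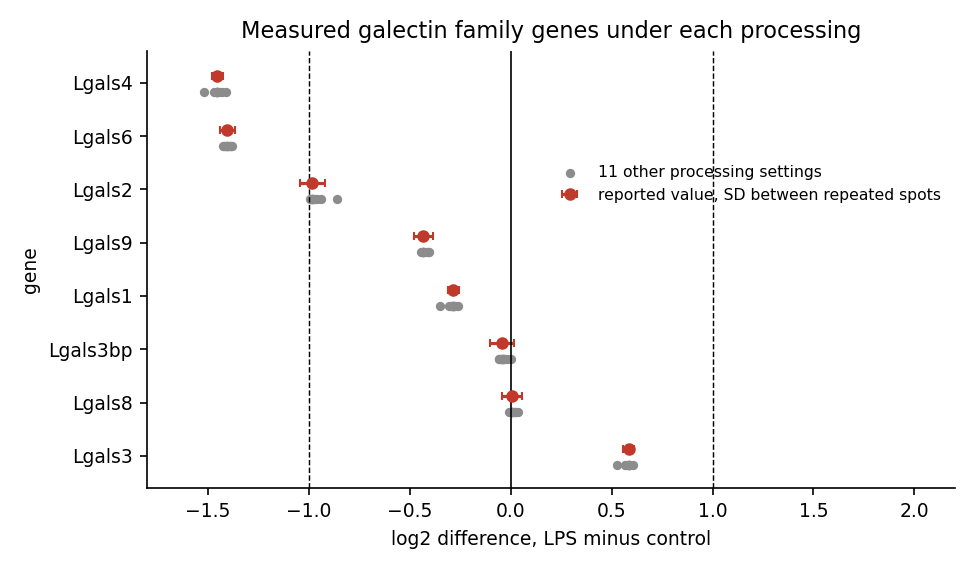
Log2 difference (LPS minus control) of the 8 measured genes, with the reported value and its SD between repeated spots in red and the values under 11 other processing settings in grey; dashed lines mark 2-fold. Lgals4 stayed between -1.52 and -1.41 and Lgals6 between -1.43 and -1.38, while Lgals2 lay between -0.997 and -0.86, short of 2-fold throughout.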

How the data were processed

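The authors deposited spot intensity values of 2 one-colour arrays, background-subtracted and detrended over the slide, from Feature Extraction software by Agilent (version 10.10.1.1), per the file headers. Flags of 0 or 1 for background and outliers were deposited with them, per the file headers. Probes of 60 bases have positions on mm9. Samples were grouped by title. Their treatment text is identical, so the LPS sample alone was taken as treated.

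Of 59305 non-control spots, 223 flagged ones were left out, and 54.7% on the LPS array and 55.8% on the control array were well above background. Processed intensities were converted to log2, and each array's 75th percentile was subtracted. Spots of a probe were averaged, and a gene took its brightest probe. Names came from the files, updated by accession through a RefSeq table of GRCm38.p6 for genes outside the family. The spot error comes from 254 of 399 probes printed 10 times. The size rule was run on simulated data whose planted differences were all well past 2-fold. That checks the code alone and says nothing of genes near 2-fold, such as Lgals2, or of dim probes. No covariate or test was used.

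Members and lists were chosen with earlier results of these data known. Named genes were all members, the 2 highest and 2 lowest measured genes of each partner list with any past 2-fold, and the 5 genes nearest Lgals4. Markers were fixed as lists, and those named from them were chosen after their values were seen, as were genes above background on 1 array. Alternatives changed the background correction (normexp with offset 50, or subtracted signal floored at 1), the scaling (quantile, cyclic loess with span 0.7, median, percentile of detected probes, 7 spike-in probes), the flags, the summary over probes, the background filter and the threshold (1.5-fold and 4-fold). Software was limma 3.58.1 in R 4.3.3, and pandas 2.3.3, numpy 2.4.6 and matplotlib 3.10.9 in Python 3.11.15.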

Additional observations from a re-analysis of the deposited data

How the results depend on the processing

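At a 4-fold threshold 0 galectin genes were different, and the count of at least 2-fold different genes stayed at 2 under 9 of the 11 other settings. It was 3 at 1.5-fold, where Lgals2 joined, and 3 with the looser background flag or no filter, where the dim Lgals7 probe joined as higher. Lgals3, at 1.499-fold higher, lay just short of 1.5-fold, and its log2 difference ran from 0.52 to 0.61 over the 11 other settings. Shares of all measured genes past 1.5-fold and 4-fold were not taken, so nothing is read from those counts. Lgals4 stood at -1.52 with quantile normalization and -1.41 with the median over probes, and within the spot error of its reported value otherwise. Members near 0 changed sign: Lgals3bp was 0.00011 with cyclic loess (its probes A_55_P2179413 at 0.00011 and A_51_P359636 at 0.017), and Lgals8 with its probe A_55_P2112599 was -0.0086 with the percentile of detected probes. The median over all measured genes shifted by under 0.1 with each setting. No paired analysis was possible because each group had 1 array. The causes of these changes were not tested, except that a filter or threshold sets which genes are counted. Spread between cultures was not measured.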
